A study of Mus musculus with 2 samples.

Results

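The 7 genes described here encode collagen chains that form beaded filaments or networks, or bind the surface of collagen fibrils, rather than forming fibrils. They were chosen by family from a fixed list, which held the 3 main type VI chains (Col6a1, Col6a2 and Col6a3), the short-chain collagen Col8a1 and the fibril-associated chains Col12a1, Col14a1 and Col16a1. All 7 of 7 were found among the 31053 genes of the count tables. The rule used no measured value, but the genes were chosen with earlier results of these data known. Single-cell RNA sequencing was carried out on small tumours of the mouse melanoma line B16F10, injected under the skin of hosts of 2 genotypes. The WT library came from Atf4wt/wt hosts and the KO library from Atf4D/D hosts, with 1 library per genotype and 2 tumours pooled in each. Hosts were 11 weeks old, of both sexes per the labels, on a C57BL/6 background. Every host carried Rosa26::CreERT2 and received tamoxifen, so the controls shared both, and in KO hosts recombination removed exons 2 and 3 of the floxed Atf4 alleles. The deletion was driven in all host cell types and not in fibroblasts alone, and the injected melanoma cells kept their own Atf4.

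Collagen VI is made from 3 different chains that join inside the cell, pair into larger units and are secreted as beaded microfilaments found close to cells in most connective tissues. Collagens XII, XIV and XVI belong to the group with interrupted triple helices that sits on or between fibrils of collagens I and III, and collagen VIII forms networks around vessels and in remodelling tissue. In skin and in tumours these chains are made mainly by fibroblasts, called CAFs when they lie in a tumour, and by mural cells (pericytes and smooth muscle). ATF4 is a transcription factor of the integrated stress response, and the comparison of hosts addresses how much of each chain host cells express without it.

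The 7 genes lie on 6 chromosomes of the GRCm38 build and are all protein-coding. Col6a1 (chromosome 10, 76708792 to 76726168, 35 exons in its longest exon chain) and Col6a2 (chromosome 10, 76595762 to 76623630, 28 exons) are neighbours on the minus strand, 85.2 kb apart with 0 protein-coding genes lying between them. Col6a3 lies elsewhere, on chromosome 1 (90765923 to 90843971, minus strand, 44 exons). Col8a1 lies on chromosome 16 (57624258 to 57754737, minus strand) with 4 exons, the fewest of the 7. Col12a1 (chromosome 9, 79598991 to 79718831, minus strand) has 66 exons, Col14a1 (chromosome 15, 55307750 to 55520803, plus strand) has 48 and Col16a1 (chromosome 4, 130047840 to 130099283, plus strand) has 70. The count tables also list an antisense gene across Col12a1 (4930562D21Rik) and another across Col14a1 (1700040F17Rik). Whether counting used strand is not given in the sources used here, so reads of these partners may not be separable.

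Promoter windows are shown for the 3 type VI chains and for Col16a1. Over all stromal cells the type VI chains were lower together in the KO library, and Col16a1 was not. RefSeq windows of 250 bases before to 50 after the transcription start (GRCm38.p6) were found for 5 of the 7 genes, 6 windows in all, with 2 for Col6a2. Each window is written 5′ to 3′ along the gene's own strand, and capitals mark the single motif match.
Col6a1 (chr10:76725995-76726294, minus strand): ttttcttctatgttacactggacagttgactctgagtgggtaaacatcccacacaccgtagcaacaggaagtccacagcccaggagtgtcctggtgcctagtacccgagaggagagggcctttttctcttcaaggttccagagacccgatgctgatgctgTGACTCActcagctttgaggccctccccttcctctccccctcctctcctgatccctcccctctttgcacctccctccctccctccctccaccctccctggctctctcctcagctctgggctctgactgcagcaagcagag
Col6a2 (chr10:76623355-76623654, minus strand): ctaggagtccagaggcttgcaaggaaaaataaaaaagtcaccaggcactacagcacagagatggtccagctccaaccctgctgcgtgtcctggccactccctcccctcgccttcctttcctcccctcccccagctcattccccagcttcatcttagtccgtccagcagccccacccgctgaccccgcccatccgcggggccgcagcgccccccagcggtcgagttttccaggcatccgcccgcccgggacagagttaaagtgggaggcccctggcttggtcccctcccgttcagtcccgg
Col6a3 (chr1:90843922-90844221, minus strand): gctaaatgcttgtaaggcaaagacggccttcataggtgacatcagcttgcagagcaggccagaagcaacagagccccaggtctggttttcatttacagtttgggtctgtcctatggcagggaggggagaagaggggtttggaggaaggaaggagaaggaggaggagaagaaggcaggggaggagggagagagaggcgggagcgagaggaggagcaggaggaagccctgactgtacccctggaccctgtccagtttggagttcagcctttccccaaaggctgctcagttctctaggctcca
Col16a1 (chr4:130047590-130047889, plus strand): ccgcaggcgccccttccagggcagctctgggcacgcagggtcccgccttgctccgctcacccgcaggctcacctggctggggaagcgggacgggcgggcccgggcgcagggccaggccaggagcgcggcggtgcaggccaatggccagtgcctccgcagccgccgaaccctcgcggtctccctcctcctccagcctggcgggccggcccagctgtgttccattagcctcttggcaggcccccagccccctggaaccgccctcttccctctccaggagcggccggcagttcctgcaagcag
The motifs searched on both strands were the C/EBP-ATF response element TGATGNAA, which ATF4 binds together with C/EBP partners, the cyclic AMP response element TGACGTCA, the AP-1 site TGANTCA and the TATA box TATAAA. The only match in the 6 windows was an AP-1 site in Col6a1, TGACTCA, which begins at position -90 from the start, so no matches overlapped. AP-1 was found in 7.81% of 32851 RefSeq promoter windows of the same length, the C/EBP-ATF element in 3.97%, the cyclic AMP element in 1.79% and the TATA box in 13.6%. The Col16a1 window held 74.3% G and C, against 57.3% for Col6a1 and 56.3% for Col6a3. These matches describe the letters of the windows only.

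Cells were assigned to classes by counting detected marker genes, none of which was a collagen. Stromal cells, the fibroblasts and mural cells, were those with at least 6 of 15 fibroblast markers or at least 5 of 13 mural markers. They numbered 208 of 3861 kept WT cells (5.39%) and 230 of 3557 kept KO cells (6.47%), with 1112606 and 1105144 unique molecular identifiers (UMIs, each 1 captured transcript) and medians of 4121 and 3953.5 UMIs per cell. The gate itself asked for fibroblast or mural markers, so their presence is no check of the class, and markers of other classes were present too, apart from those of T and NK cells with 7 UMIs in each library. Cells meeting a second gate as well, which may be doublets, numbered 34 WT and 22 KO stromal cells. Sums over stromal cells of these other markers differed between libraries, from 834 to 209 CPM for 14 myeloid markers, from 918 to 453 CPM for 13 endothelial markers, from 2383 to 1806 CPM for 11 melanoma markers and from 316 to 0 CPM for 4 haemoglobin genes in WT and KO respectively. The Xist transcript of female cells and Y-linked transcripts did not match between libraries either. In the WT library 176 stromal cells had Xist and 0 had a Y-linked UMI without it, whereas in the KO library 62 had Xist and 57 had a Y-linked UMI without it. Neither was detected in 32 WT and 111 KO stromal cells, which the split leaves out. The labels describe both pools as male and female, so the stromal cells of the WT library did not show the labelled mix, and values for cells with Xist alone stand beside the main results.

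Atf4 itself was measured at 241 CPM (268 UMIs per 1112606) in WT and 49.8 CPM (55 UMIs) in KO stromal cells. CPM is the UMIs of a gene over the UMIs of all genes in the same cells, scaled to 1000000. The log2 ratio of KO to WT was -2.28, with a 95% counting interval of -2.72 to -1.85. In melanoma cells, which carry their own gene, the ratio was -0.10 (-0.16 to -0.04). The labels therefore matched the host gene in the cells that express the 7 collagens. With 1 library per genotype there was no test between genotypes. Poisson intervals of levels and exact binomial intervals of ratios cover counting error only, and cells of 1 library are not replicates.

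The 3 type VI chains were the most abundant of the 7 in stromal cells, and each was 1.66-fold to 1.96-fold lower in the KO than in the WT library. Col6a1 encodes the alpha-1 chain of collagen VI and reached 1433 CPM (1594 UMIs) in WT and 861 CPM (952 UMIs) in KO stromal cells, a log2 ratio of -0.73 (-0.85 to -0.62). Col6a2 encodes the alpha-2 chain and fell by 0.97 on the log2 scale (interval -1.13 to -0.82), from 893 CPM (994 UMIs) to 455 CPM (503 UMIs). Col6a3 encodes the longest of the 3 chains, whose released C-terminal piece is the signalling fragment endotrophin, and was measured at 1761 CPM (1959 UMIs) in WT and 1059 CPM (1170 UMIs) in KO, a log2 ratio of -0.73 (-0.84 to -0.63). The counting intervals of the 2 libraries did not overlap for any of the 3 chains. Their sum was 4087 CPM in WT and 2375 CPM in KO, 1.72-fold lower (log2 -0.78, -0.85 to -0.71).

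The other short or fibril-associated chains were less abundant. Col8a1, the alpha-1 chain of the network-forming collagen VIII, was measured at 185 CPM (206 UMIs) in WT and 118 CPM (130 UMIs) in KO, a log2 ratio of -0.65 (-0.98 to -0.33). Col12a1, whose long product binds the surface of collagen I fibrils, was measured at 337 CPM (375 UMIs) and 180 CPM (199 UMIs), a ratio of -0.90 (-1.16 to -0.65). Col14a1, which limits fibril diameter in skin and tendon, was measured at 234 CPM (260 UMIs) and 143 CPM (158 UMIs), a ratio of -0.71 (-1.0 to -0.42). These 3 genes were lower in the KO library with separate intervals. Col16a1, the chain of a minor fibril-associated collagen, stood apart, with 106 CPM (118 UMIs) in WT and 109 CPM (120 UMIs) in KO. Its log2 ratio of 0.03 had an interval from -0.34 to 0.41, so a difference smaller than that range was not detectable at this depth.

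The order of levels in WT stromal cells was Col6a3, Col6a1, Col6a2, Col12a1, Col14a1, Col8a1 and Col16a1, and Col14a1 and Col8a1 were the only neighbours whose counting intervals overlapped. In the KO library the type VI chains kept their order, and every pair of neighbours among the last 4 genes overlapped.

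By a 1.5-fold threshold, 6 of the 7 genes were lower in the KO library and 0 were higher. Of all 8433 genes with at least 20 UMIs in stromal cells, 16.1% were lower by that much and 11.1% were higher. The median log2 ratio of the 7 was -0.73, against -0.07 over all genes tested. Among the 1680 genes with at least 200 UMIs, 7.56% were lower and 7.14% higher. At 2-fold 0 of the 7 were lower, against 6.15% of the 8433 genes with at least 20 UMIs. When the comparison was restricted to cells that had Xist but lacked Y-linked UMIs (176 WT and 62 KO cells), 3 of the 7 remained past 1.5-fold, Col6a2, Col8a1 and Col12a1, against 22.0% of genes. The size of the type VI difference therefore depended on which KO cells were used, and host sex and genotype cannot be told apart over all cells. Leaving out the cells that met a second gate moved the type VI sum to -1.0, further from 0.

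**Figure D1:**
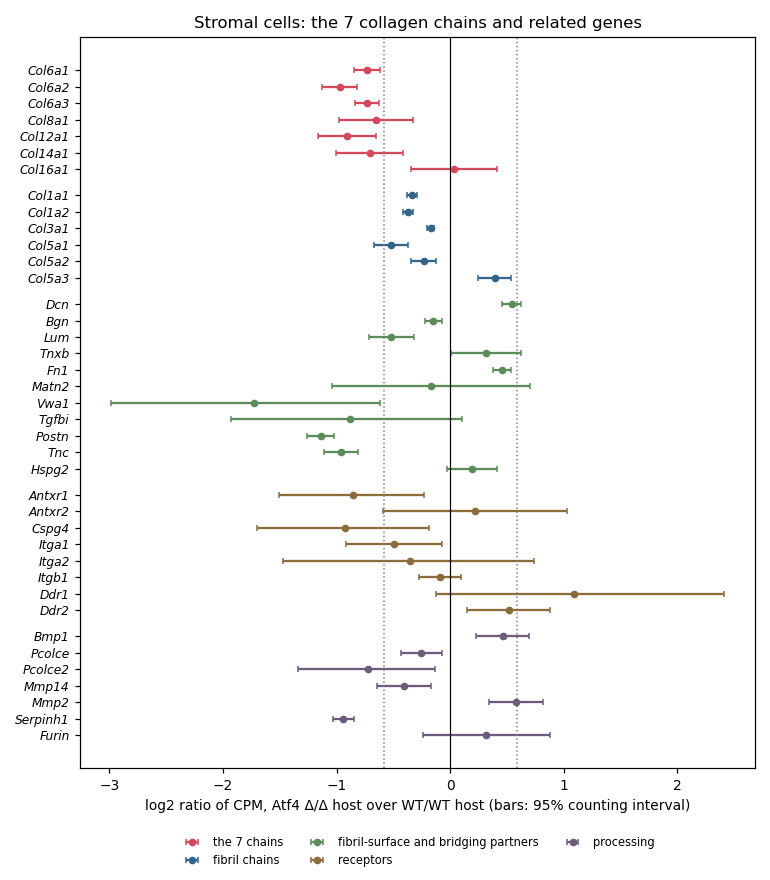
Each point is the log2 ratio of CPM in stromal cells, KO over WT, for a collagen chain or a gene of a related list, with its 95% counting interval, and dotted lines mark 1.5-fold. Of the 7 chains at the top, 6 lie left of the lower line, Col6a2 farthest at -0.97, and Col16a1 lies at 0.03, whereas the fibril chains under them lie between -0.52 and 0.39.

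The split by Xist and Y-linked UMIs was followed for each chain. Type VI chains summed to 3974 CPM in WT cells with Xist, 3038 CPM (2829 to 3260) in KO cells with Xist and 1994 CPM (1851 to 2146) in KO cells with a Y-linked UMI. The 2 groups of KO cells thus differed from each other as well as from the WT cells. They left out 111 KO cells with neither transcript, and their depth and subtype mix were not matched. The KO cells with Xist held 256056 UMIs over 62 cells, and those with a Y-linked UMI held 356991 over 57. For Col6a1 the levels were 1363, 1183 and 686 CPM in the same order, so the KO cells with Xist lay nearest to WT for this chain, at a log2 ratio of -0.20 (-0.39 to -0.02). Col6a2 was measured at 884, 578 and 384 CPM, and Col6a3 at 1727, 1277 and 924 CPM. Col14a1 followed the same order, at 239, 160 and 129 CPM, with overlapping intervals of the 2 KO groups. Col12a1, Col8a1 and Col16a1 did not. Col12a1 was measured at 343 CPM in WT cells with Xist and 160 CPM (115 to 217) in KO cells with Xist. In KO cells with a Y-linked UMI it was at 196 CPM (153 to 248), and the 2 KO intervals overlapped. Its ratio in cells with Xist, -1.10, was further from 0 than in all stromal cells. Col8a1 was measured at 164, 97.6 and 120 CPM and Col16a1 at 110, 82.0 and 115 CPM, with overlapping intervals of the 2 KO groups. The part of sex in these differences was not tested.

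**Figure D2:**
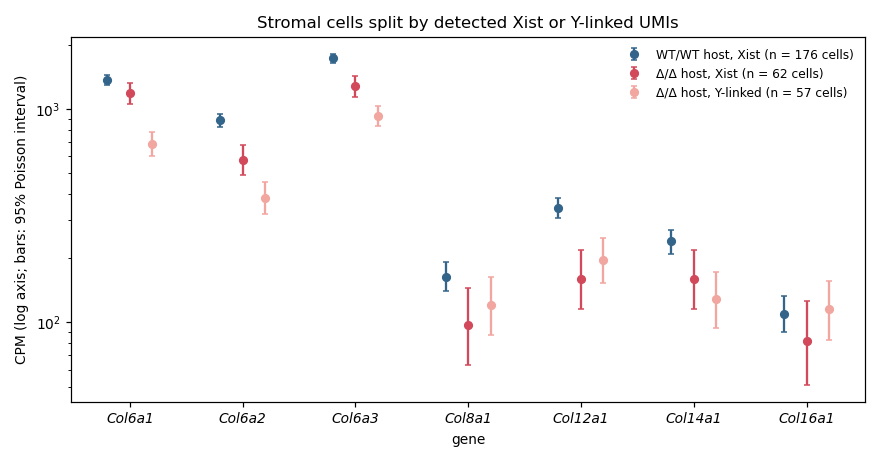
Levels of the 7 chains (CPM, log axis) in stromal cells split by detected Xist or Y-linked UMIs, with 95% Poisson intervals. For Col6a1, Col6a2 and Col6a3 the KO cells with a Y-linked UMI are lowest (686, 384 and 924 CPM) and the KO cells with Xist lie between them and WT, whereas for Col8a1, Col12a1, Col14a1 and Col16a1 the 2 KO groups overlap.

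In the whole tumour, stromal cells held most UMIs of 6 of the 7 genes. Of the Col6a1 UMIs in kept cells, 92.2% lay in stromal cells in WT and 92.2% in KO. For Col6a3 the shares were 94.0% and 93.2%, and for Col8a1 90.7% and 92.9%. Those of Col12a1 were 89.9% and 82.6% and those of Col14a1 90.9% and 83.2%. Stromal levels of Col6a1 were 520-fold those of melanoma cells in the WT library, and 37.0-fold those of endothelial cells. T and NK cells had 0 UMIs of all 7 genes in both libraries, over 45 WT and 14 KO cells. These cells held only 39366 and 13695 UMIs in total, so the upper bounds for a gene were 93.7 CPM in WT and 269 CPM in KO. The KO bound lay above the KO stromal levels of Col8a1, Col12a1, Col14a1 and Col16a1. In endothelial cells, the gene nearest to its stromal level was Col8a1, at 30.1 CPM (7 UMIs) in WT, 6.16-fold below stromal cells. Melanoma and myeloid levels of the 3 type VI chains lay between 0.300 and 5.65 CPM.

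Col16a1 was distributed unlike the other chains. Only 25.1% of its WT UMIs and 22.1% of its KO UMIs lay in stromal cells, whereas melanoma cells held 66.6% and 70.8%. Melanoma cells were measured at 16.3 CPM (313 UMIs) in WT and 19.3 CPM (385 UMIs) in KO, a log2 ratio of 0.24 (0.02 to 0.46). Stromal cells were thus 6.52-fold above melanoma cells in WT and 5.64-fold in KO on the CPM scale, but melanoma cells were more numerous (1639 and 1764 cells) and deeper, with medians of 11583 and 11096 UMIs. By the 1.5-fold threshold in melanoma cells, 2 of the 6 chains with at least 20 UMIs were lower in KO, Col6a1 and Col6a2, against 4.51% of genes, and 0 were higher, against 9.63%. Col6a1 rested on 53 WT and 30 KO UMIs and Col6a2 on 38 and 6.

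**Figure D3:**
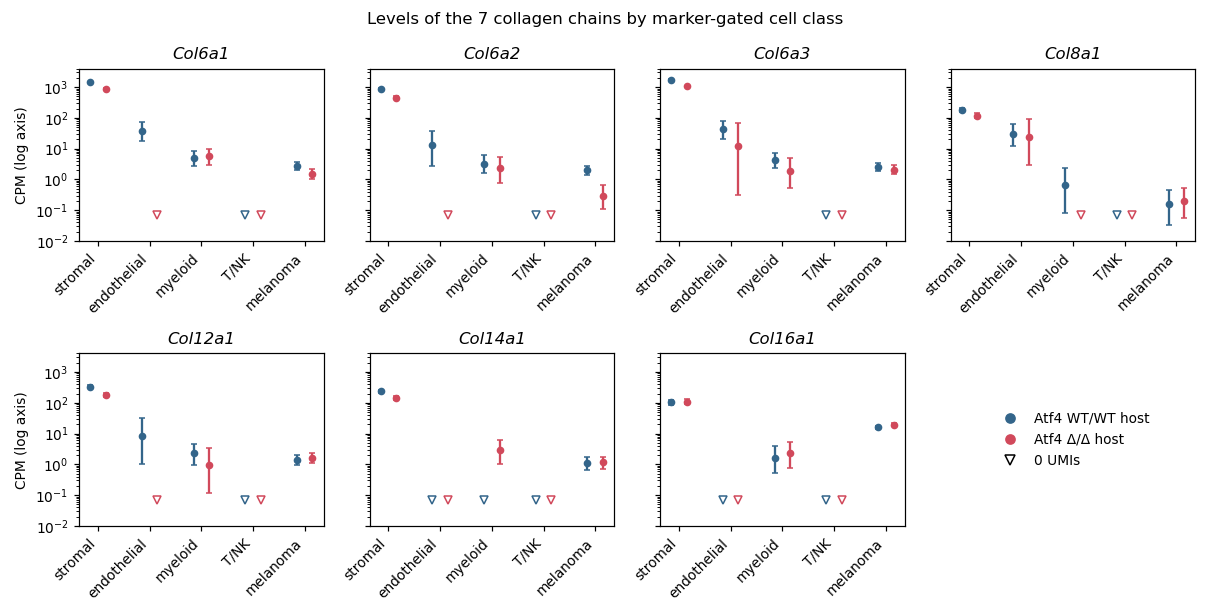
Levels of each chain (CPM, log axis) in 5 marker-gated cell classes of the WT (blue) and KO (red) library, with 95% Poisson intervals, and open triangles, at an arbitrary height, for 0 UMIs. Measured levels are highest in stromal cells for all 7 chains, at 106 to 1761 CPM in WT. For T/NK cells, 0 UMIs has upper bounds of 93.7 CPM in WT and 269 CPM in KO. Col16a1 is the chain with the highest melanoma level, 16.3 CPM in WT.

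The type VI UMIs of the same cells were also counted cell by cell. After each stromal cell was thinned to 2000 UMIs, which left out 17 WT and 22 KO cells with fewer, a median WT cell had 9 type VI UMIs (quartiles 4 and 15, highest 39) and a median KO cell had 4 (quartiles 2 and 7, highest 32). The share of cells with 0 type VI UMIs was 4.71% in WT and 8.65% in KO. All 3 chains were seen together in 123 of 191 WT cells, 64.4% (Clopper-Pearson 95% interval 57.2 to 71.2), and in 76 of 208 KO cells, 36.5% (30.0 to 43.5). Those intervals did not overlap, but they cover the sampling of cells within 1 library and not differences between hosts. The cells were not split by Xist here. Type VI UMIs appeared in 1.5% of WT and 0.635% of KO melanoma cells thinned in the same way, and how much of this was free RNA or doublets was not tested.

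**Figure D4:**
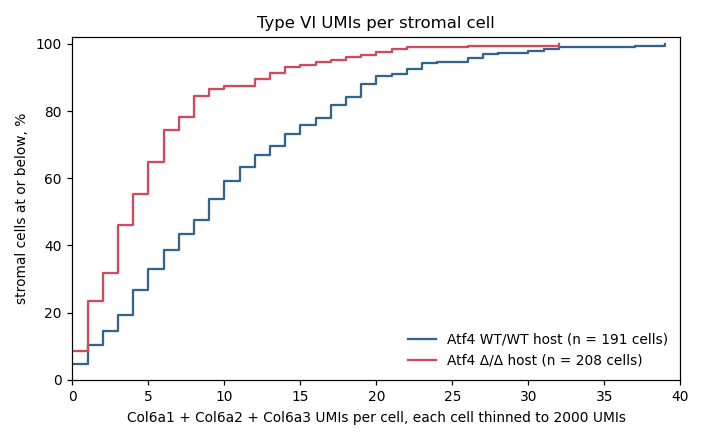
Cumulative share of stromal cells (%) against their summed Col6a1, Col6a2 and Col6a3 UMIs, each cell thinned to 2000 UMIs. The KO curve (208 cells) lies to the left of the WT curve (191 cells) up to its highest value, with medians of 4 and 9 UMIs.

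Single chains gave thinned shares in the same direction, with the smallest difference for Col16a1. Intervals of the libraries also overlapped for Col8a1, at 22.5% (16.8 to 29.1) in WT and 16.3% (11.6 to 22.1) in KO. For Col14a1, at 37.2% (30.3 to 44.4) and 24.5% (18.8 to 30.9), they overlapped at their ends. A Col6a2 UMI was found in 73.8% (67.0 to 79.9) of WT and 50% (43.0 to 57.0) of KO cells, against 91.8% and 70.0% before thinning. Col6a3 was found in 90.1% and 73.1% of cells, against 96.2% and 87.8% before thinning, and Col12a1 in 40.3% and 23.6%, against 58.2% and 41.7%. Col16a1 was found in 21.5% (15.9 to 28.0) and 18.8% (13.7 to 24.7), against 38.9% and 39.1% before thinning, and in 2.81% and 3.0% of thinned melanoma cells. Across thinned WT cells (n = 191), the type VI chains went together, with Spearman's rho of 0.67 between Col6a1 and Col6a3, 0.59 between Col6a1 and Col6a2 and 0.58 between Col6a2 and Col6a3. Across KO cells (n = 208) these were 0.37, 0.52 and 0.33. Cells of 1 library share its processing and their lower counts limit rho, so these values are descriptions.

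The type VI monomer holds 1 of each of its 3 chains, and the proportions of their transcripts differed little between libraries. In WT stromal cells Col6a1, Col6a2 and Col6a3 made up 35.1%, 21.9% and 43.1% of type VI UMIs. In KO cells they made up 36.3%, 19.2% and 44.6%. The share of Col6a2 had intervals of 20.7 to 23.1 in WT and 17.7 to 20.7 in KO, which met at their ends. Without the cells that met a second gate the Col6a2 share was 22.2% in WT and 19.0% in KO. A 3′ kit counts each captured transcript once whatever its length, so these are proportions of captured transcripts, with unequal capture between genes possible.

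Stromal cells were divided by marker lists into vascular cells (at least 5 mural markers), cycling cells, hypoxic cells, adventitial-type cells with markers such as Pi16 and Dpp4, activated cells with markers such as Lrrc15 and Cthrc1, and others that met no list. WT and KO numbers were 20 and 14 vascular, 46 and 42 cycling, 10 and 38 hypoxic, 34 and 60 adventitial-type, 70 and 49 activated and 28 and 27 other cells. In WT, type VI chains were highest in the other cells at 6944 CPM and in activated cells at 5633 CPM, followed by hypoxic cells at 3820 CPM and cycling cells at 3791 CPM, whose intervals overlapped. Adventitial-type cells were at 2701 CPM. Vascular cells were at 2111 CPM, but 14 of the 20 WT vascular cells also met another gate, and the 6 others were at 5333 CPM, above adventitial-type (2662 CPM) and hypoxic cells (4309 CPM) without such cells, so the place of vascular cells in the order depended on them. Among KO cells the other and activated cells were again highest, at 4025 and 3683 CPM with overlapping intervals, but cycling cells were lowest, at 1455 CPM.

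The difference between libraries in the type VI sum was widest in cycling cells, 2.60-fold lower in KO, and was not detectable in vascular cells. In cycling cells the log2 ratio was -1.38 (-1.53 to -1.23), and it was -1.63 without cells that met a second gate (36 WT and 26 KO cells left). In cycling cells with Xist alone (39 WT and 8 KO cells) it was -0.54, and the other cells (24 and 14 with Xist) were then lowest, at -1.23. Hypoxic cells gave -0.82 (-1.07 to -0.57) and, with Xist alone (9 and 9 cells), -0.10 (-0.43 to 0.22). Activated cells gave -0.61 (-0.74 to -0.49), and adventitial-type cells gave -0.33 (-0.54 to -0.12). Vascular cells gave 0.24 (-0.01 to 0.48), but -0.23 (-0.57 to 0.11) without cells that met a second gate and 0.74 in cells with Xist alone, of which 2 were KO cells. The direction was thus shared by the 5 other subtypes, and in vascular cells it turned with the cells used. Cycling cells also had the Atf4 ratio nearest to 0 of the subtypes, -1.25, at 220 CPM (77 UMIs) in WT and 92.2 CPM (32 UMIs) in KO. Melanoma markers summed to 4586 and 4267 CPM in cycling cells. The part of either in the type VI difference was not tested.

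Counts of genes past 1.5-fold differed by subtype in the same way. Of chains with at least 20 UMIs, 6 of 7 were lower in cycling KO cells, against 16.3% of genes, and 5 of 7 in activated cells, against 15.7%. In hypoxic cells 3 of 6 were lower, against 18.3%, and 0 higher, against 20.9%. In adventitial-type cells 3 of 7 were lower, against 15.7%, and 0 higher, against 19.7%, and in other cells 3 of 6, against 18.2%. In vascular cells 0 of 5 were lower, against 19.5%, and 1 was higher, Col8a1, against 16.6%, with 19 WT and 12 KO UMIs and an interval that included 0.

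Vascular cells were the exception for Col6a3 in particular. In adventitial-type cells its log2 ratio was -0.13 (-0.45 to 0.19), which did not separate the libraries. In vascular cells Col6a3 was measured at 980 CPM (214 UMIs) in WT and 1367 CPM (106 UMIs) in KO, a log2 ratio of 0.48 (0.13 to 0.82). Col6a1 in the same cells gave -0.06 (-0.55 to 0.40). Endothelial markers summed to 4016 and 3726 CPM in these cells, and a median WT vascular cell had 9.5 of 13 endothelial markers against 1.5 in KO. Without cells that met a second gate, 6 WT and 8 KO cells were left, the Col6a3 levels were 2400 and 2501 CPM and the ratio was 0.06 (-0.43 to 0.55). The type VI sum then gave -0.23 (-0.57 to 0.11). The cells left still held 433 CPM of endothelial markers in WT and 834 CPM in KO, and the interval for Col6a3 included 0.48. The part of cells that met a second gate in the higher Col6a3 level of KO vascular cells was not tested.

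**Figure D5:**
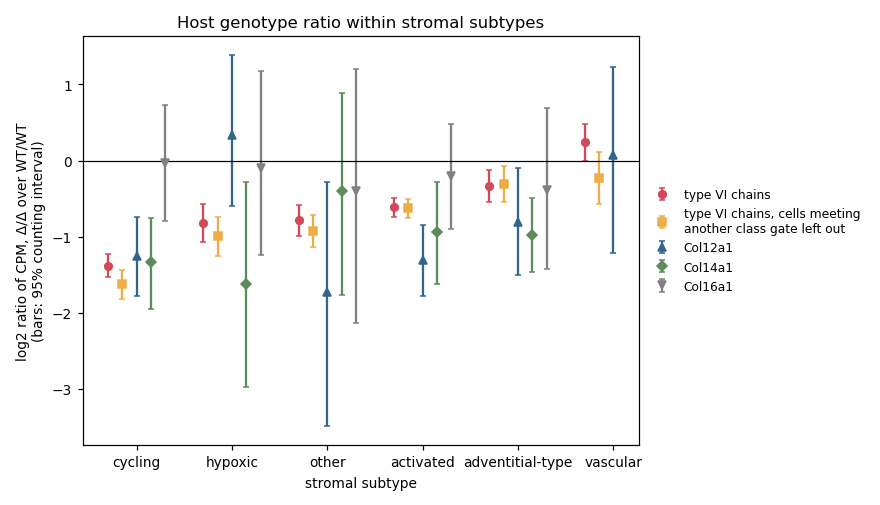
Log2 ratio of CPM, KO over WT, in 6 stromal subtypes for the summed type VI chains (red, and orange without cells that met a second gate) and for Col12a1, Col14a1 and Col16a1, with 95% counting intervals. Col14a1 and Col16a1 are not drawn in vascular cells, where they had few UMIs. The type VI sum lies lowest in cycling cells (-1.38) and nearest 0 in adventitial-type (-0.33) and vascular cells (0.24).

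The fibril-associated chains had subtype patterns of their own. Col14a1 was highest in adventitial-type cells, at 655 CPM (72 UMIs) in WT and 331 CPM (75 UMIs) in KO, 2.64-fold above cycling cells, the next subtype, in WT. It was at 13.7 CPM (3 UMIs) in WT vascular cells and 12.9 CPM (1 UMI) in KO. In adventitial-type cells its log2 ratio between libraries was -0.98 (-1.47 to -0.50). WT adventitial-type cells held 3483 CPM of myeloid markers against 124 CPM in KO, and 98.2 CPM without 4 cells that met a second gate. The part of those cells in the Col14a1 difference was not tested.

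Col12a1 was highest in activated cells, at 594 CPM (173 UMIs) in WT, 1.87-fold above cycling cells. In KO activated cells it was measured at 240 CPM (52 UMIs), a log2 ratio of -1.31 (-1.78 to -0.85). In KO cells the hypoxic subtype had the highest level, at 280 CPM (47 UMIs), but its interval overlapped that of activated cells. In WT hypoxic cells Col12a1 was at 221 CPM (12 UMIs), and the ratio of 0.34 (-0.60 to 1.39) did not separate the libraries. Col8a1 was highest in activated cells of both libraries, at 298 CPM (87 UMIs) and 180 CPM (39 UMIs), and no neighbouring subtypes differed beyond counting error. Col16a1 was measured at 91.3 to 166 CPM over the 5 WT subtypes other than vascular, which had 22.9 CPM (5 UMIs). Its interval for the ratio between libraries included 0 in every subtype.

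Over all stromal cells most of the fibril chains that these 7 accompany were lower by less. Of the 7 fibril chains on the list, 6 had at least 20 UMIs. Their log2 ratios were below 0 for 5 chains and above 0 for 1, at 0.39 (0.25 to 0.54). Of these chains, 0 were past 1.5-fold in either direction, with a median log2 ratio of -0.28. Within subtypes this was not so throughout, as 5 of 6 fibril chains were lower past 1.5-fold in cycling KO cells (median -0.83) and 4 of 6 in hypoxic cells (median -0.61). The shares of all genes lower past that fold were 16.3% in cycling and 18.3% in hypoxic cells. Col3a1, the skin and vessel fibril chain, was measured at 12854 and 11400 CPM, a ratio of -0.17 (-0.21 to -0.14). Col1a1, the main fibril chain, was measured at 8881 and 7042 CPM, -0.33 (-0.38 to -0.29), and Col1a2, its partner chain, gave -0.37. Col5a2, a chain of the fibril-starting collagen V, gave -0.23. Relative to Col1a1 in the same cells, the type VI sum had a log2 ratio of -0.45 (-0.53 to -0.37), from 0.460 to 0.337 type VI UMIs per Col1a1 UMI. Col6a2 relative to Col1a1 gave -0.64 and Col12a1 -0.57, while Col16a1 gave 0.37 (-0.01 to 0.75). The comparison with fibril chains was not made in cells with Xist alone, where the type VI sum gave -0.39 and Col6a1 -0.20. Other chains of these families, such as Col8a2, Col9a1 and Col20a1, were barely detected, with 0 of 11 reaching 20 UMIs.

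Of the matrix proteins that bind these collagens, 4 of 11 with enough UMIs were lower past 1.5-fold in KO and 0 were higher, against 16.1% and 11.1% of all genes, with a median of -0.17. Periostin (Postn), a matricellular protein, was measured at 1771 and 803 CPM, -1.14 (-1.26 to -1.03), and tenascin C (Tnc), a glycoprotein of remodelling matrix, at 985 and 506 CPM, -0.96 (-1.11 to -0.81). Vwa1, a cartilage and basement membrane protein that binds collagen VI, had 30 WT and 9 KO UMIs, and Tgfbi, which binds several collagens, had 26 and 14, with an interval that included 0. Postn and Tnc were also markers of the activated subtype, whose 10 markers summed to 4739 CPM in WT and 3011 CPM in KO stromal cells. The proteoglycan biglycan (Bgn) gave -0.15, and fibronectin (Fn1) and decorin (Dcn) were higher in KO, at 0.46 and 0.54 without passing 1.5-fold.

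Receptors of these collagens had fewer UMIs, with 2 of 8 lower, 1 higher and a median of -0.22, which is near the shares of all genes (16.1% and 11.1%). Antxr1, a receptor that binds collagen VI, had 62 WT and 34 KO UMIs, -0.86 (-1.51 to -0.23), and Cspg4 (NG2), a mural proteoglycan that binds collagen VI and served as a mural marker here, had 46 and 24, -0.93 (-1.71 to -0.19). Ddr1, a collagen receptor kinase, was higher on 9 and 19 UMIs with an interval that included 0. The integrin chain Itgb1, with the most UMIs of the list, gave -0.09 (-0.27 to 0.10), the collagen receptor kinase Ddr2 gave 0.51 and the integrin chain Itga1 gave -0.49. Of the processing genes, 2 of 7 were lower and 0 were higher, against 16.1% and 11.1% of all genes, and the median was -0.25. Serpinh1, the collagen chaperone HSP47, was measured at 2518 and 1310 CPM, -0.94 (-1.04 to -0.85), and Pcolce2, a procollagen protease enhancer, gave -0.73 (-1.34 to -0.13). Pcolce, its relative, gave -0.25, and the gelatinase Mmp2 and the procollagen protease Bmp1 gave 0.58 and 0.46, higher in KO. Dcn, Pcolce and Mmp2 were fibroblast markers of the stromal gate.

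The genes whose levels followed these chains most closely over the 12 sums of subtype and library were found among 1673 genes by Pearson's r of log2(CPM + 10). For the type VI sum they included Ppib, the proline isomerase that acts on procollagen in the endoplasmic reticulum (r = 0.88), and Erp44, an endoplasmic reticulum thioredoxin (0.86), whereas Col1a1 gave 0.60. For Col14a1 they were the proteoglycan versican (Vcan, 0.96), dermatopontin (Dpt, 0.95), which was a fibroblast marker, and Gpr153 (0.95). For Col12a1 they were the actin-associated Palld (0.86), Bcap31 (0.85) and Postn (0.84), for Col8a1 Ostc (0.89), Mxra7 (0.86) and Gpx7 (0.85), and for Col16a1 Col5a2 (0.92), Efemp2 (0.91) and Ctsh (0.91). The 12 sums share libraries and depth, so r is given as a description with no test.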

How the data were processed

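Single-cell RNA sequencing was analysed from 2 libraries of small B16F10 tumours. Per the submitters' processing notes and the methods, the authors aligned reads to GRCm38 with Cell Ranger 3.1.0 and an Ensembl annotation, and Seurat 3.2.1 was used after that. What the authors deposited are unnormalised UMI counts for each gene in each cell barcode, with 6304 WT and 5474 KO barcodes, 38417113 and 38290024 UMIs, at least 500 UMIs in every barcode, and 10 barcodes shared between libraries. Labels and methods name different versions of the 3′ kit, so depth was taken from the counts.

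The study's filter was applied, which keeps cells with 200 to 5000 genes and 7.5% or less of UMIs from mitochondrial genes, leaving medians of 3920 UMIs in WT and 6279 in KO. Classes were gated by the number of detected markers. Besides the stromal gate, these were at least 5 endothelial, 5 myeloid, 3 T/NK or 6 melanoma markers, cells meeting several non-stromal gates stayed ungated, and no doublet caller was run. Stromal cells took vascular first (5 markers), then cycling (3), then the best of the hypoxic, adventitial-type and activated lists (4 each). The numbers of markers asked for were set after marker distributions had been seen, and 8 WT and 19 KO cells lay just inside the stromal gate and 10 and 17 just outside. The 7 genes and all lists were chosen with earlier results of these data known.

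CPM was computed from the summed UMIs of a class in a library over that class's total. A genotype had a single library, so no test was made, and a gene was called at 1.5-fold with at least 20 UMIs in both libraries together. Levels have exact Poisson intervals, ratios exact conditional binomial intervals and shares Clopper-Pearson intervals, all at 95%, and a floor of 3 UMIs served for folds against sums at or below it. Named genes were all 7 chains and, from 5 related lists, up to 4 with the most UMIs and any past 1.5-fold. It was applied to members with at least 20 UMIs, a limit that the rule itself did not state. Likeness left out the 7 chains and genes under 200 UMIs, and 1 gene it named is not reported here. Alternatives covered cell filters, gates, scaling with TMM factors of edgeR 4.0.16 in R 4.3.3, free RNA (17.2% of stromal UMIs in each library by melanoma markers), thinning, equal weight per cell, subtype mix and Xist. Comparisons of KO cells with a Y-linked UMI, the alternatives within subtypes and the count of chains in cells with Xist were added after seeing the data. Intervals came from scipy 1.17.1 under Python 3.11.15, with tables handled in pandas 2.3.3, and the intervals were tested on simulated counts. Gene positions came from GENCODE vM21.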

Additional observations from a re-analysis of the deposited data

Results flagged for a closer look

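In vascular stromal cells the log2 ratio of Col6a3 between the KO and the WT library was 0.48, whereas it was negative in cycling, hypoxic, activated and other stromal cells, at -1.37, -0.86, -0.66 and -0.90. The counting interval of each lay on its own side of 0. In adventitial-type cells the ratio was -0.13, with an interval (-0.45 to 0.19) that included 0. The opposite directions drew attention to this result, and the difference between subtypes was not tested, since each genotype had 1 library. It rested on 20 WT and 14 KO vascular cells, most of which in WT also met another gate, and the ratio was 0.06 in the 6 WT and 8 KO cells that did not.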

How the results depend on the processing

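No paired analysis was possible because only 1 library was made for either genotype. Over 14 alternatives to each stromal log2 ratio, all 6 chains other than Col16a1 and the type VI sum kept a negative direction, and Col16a1 kept its direction in 8 of 14, between -0.42 and 0.11. Of the 112 values, 90 moved by less than the counting interval, and 22 moved by more, among them Col16a1 in cells with Xist, which turned from 0.03 to -0.42. With cells that met a second gate left out, the ratios were -0.95 for Col6a1, -1.23 for Col6a2, -0.94 for Col6a3 and -1.0 for the type VI sum. Thinning gave -0.86, -1.23, -0.92 and -0.96 for the same. In cells with Xist alone they were -0.20, -0.61, -0.44 and -0.39, with -0.42 for Col16a1, and KO cells with a Y-linked UMI against WT cells with Xist gave -0.99, -1.20, -0.90 and -0.99. Fibroblast markers alone gave -0.86 for Col6a3 and -0.89 for the sum, equal weight per cell gave -0.85 and -0.87, and TMM scaling gave -0.71 for the sum. Thinned shares of cells with a UMI were below the unthinned ones for all 7 chains in both libraries. The lower count of chains, 6 of 7, became 3 in cells with Xist and 0 at 2-fold. The related lists have few genes, and their counts moved with the UMI limit. The lower count was 1 for fibril chains with no limit, 2 for binding partners at 200 UMIs or 2-fold, 0 for receptors at 200 UMIs or 2-fold, and 1 at 200 UMIs and 0 at 2-fold for processing genes, while the higher count of receptors was 0 at 200 UMIs and 2 with no limit. Within subtypes, leaving out cells with a second gate gave in vascular cells -0.23 for the type VI sum and 0.060 for Col6a3, and -1.63 for the sum in cycling cells. Cells with Xist gave 0.74 and 0.95 in vascular cells (2 KO cells), and for the sum -0.54 in cycling, -0.10 in hypoxic, -0.48 in activated and -1.23 in other cells. The causes of these shifts were not tested. Depth limited Col16a1, Col8a1 and the vascular and hypoxic subtypes, and a single library per genotype limited every comparison.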

Other observations

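Melanoma cells held few type VI UMIs, 139 in WT and 78 in KO, but the chains did not keep the stromal proportions in both libraries. Col6a2 made up 27.3% of them in WT (20.1 to 35.5) and 7.69% in KO (2.88 to 16.0), on 38 and 6 UMIs, while Col6a3 made up 34.5% and 53.8%. In stromal cells of the same libraries Col6a2 made up 21.9% and 19.2%. Cells that met no gate, 511 in WT and 547 in KO, had type VI levels of 91.9 and 48.6 CPM, a log2 ratio of -0.92 (-1.31 to -0.54), with Col6a2 at 22.1% and 18.9% of the chains. Col14a1 had 6 UMIs in KO myeloid cells and 0 in the 1397 WT myeloid cells. That was 2.82 CPM in KO (Poisson interval 1.04 to 6.15) against an upper bound of 1.22 CPM in WT. These Poisson intervals overlapped, while the exact interval of the log2 ratio lay above 0, from 0.75 upwards, on few UMIs.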
